A study of Mus musculus with 6 samples.

Results

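The 10 genes described here code for the machinery that turns a muscle action potential into a rise of calcium: Cacna1s, Cacng1, Ryr1, Ryr3, Jph1, Jph2, Atp2a1, Atp2a2, Casq1 and Casq2. They were taken by symbol from a table of 43074 gene symbols, all 10 were present, and all 10 were among the 17433 genes with enough counts to test. RNA was sequenced from C2C12, an established wild-type mouse skeletal myoblast line that forms multinucleated myotubes when growth serum is replaced by horse serum. Day 0 cells were untreated (2 libraries), and the other cells spent 4 days in differentiation medium with DMSO, the vehicle (2 libraries), or with 4-phenylbutyric acid at 1 mM (4-PBA, 2 libraries), an aromatic fatty acid used as a chemical chaperone and histone deacetylase inhibitor. Against day 0, the time, the change of medium and the vehicle cannot be told apart. Nothing in the labels ties replicates to separate cultures, so p-values measure the spread between libraries, which may be technical. For most genes that spread was estimated largely from other genes.

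In skeletal muscle the membrane runs inward as transverse tubules, which lie against the sarcoplasmic reticulum, the calcium store of the fibre. A voltage-sensing calcium channel in the tubule opens the ryanodine receptor, the release channel of the store, by direct contact. Junctophilins hold both membranes together, calsequestrin binds calcium inside the store, and the SERCA pumps return calcium to it afterwards.

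Total counts ranged from 47908926 to 74697397 per library. The 10 genes took 0.0726% to 0.074% of a library at day 0, and at day 4 0.249% to 0.261% under DMSO and 0.233% to 0.234% under 4-PBA. The myotube genes chosen as markers (Myog, Mymk, Mymx, Des, Myh3, Myh8, Actc1, Acta1, Tnnt3 and Ckm) summed to 972.4 and 976.1 CPM (counts scaled to the library total, after TMM) at day 0, 7550 and 7863 under DMSO and 7249 and 7372 under 4-PBA. Markers of other cell types were low: the endothelial, immune, fat, Schwann cell and bone lists each summed to at most 5.946 CPM in any library, Sox10 had no counts in any library and Ptprc at most 3.

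All 10 genes were higher at day 4 than at day 0 with DMSO (edgeR's quasi-likelihood test, adjusted p under 0.05), where 33.8% of all tested genes were called higher. Their median log2 fold change was 3.08, against 0.023 over all tested genes, and it ran from 0.55 for Atp2a2 to 8.24 for Casq1. With 4-PBA, all 10 were also higher than at day 0, against 33.2% of all tested genes, with a median of 2.92. That log2 fold change was 7.53 (SE 0.208) for Casq1, 4.45 (SE 0.0592) for Atp2a1 and 3.54 (SE 0.0352) for Ryr1. Between 4-PBA and DMSO at day 4, Casq1, Atp2a1, Ryr1, Cacng1 and Cacna1s were lower with 4-PBA, 5 of 10 where 2.78% of all tested genes were called lower. Of all tested genes 2.13% were called higher, and none of the 10 was, by edgeR at an adjusted or an unadjusted p under 0.05, by DESeq2 or by limma-voom. The number called lower was 7 at an unadjusted p under 0.05 and 6 by each of DESeq2 and limma-voom. Of the 17433 tested genes, 1488 were lower and 1420 higher at an unadjusted p under 0.05. DESeq2 called 384 of them lower and 298 higher, and limma-voom 481 lower and 346 higher. These comparisons share libraries, so their values are given side by side and not as separate evidence.

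**Figure D1:**
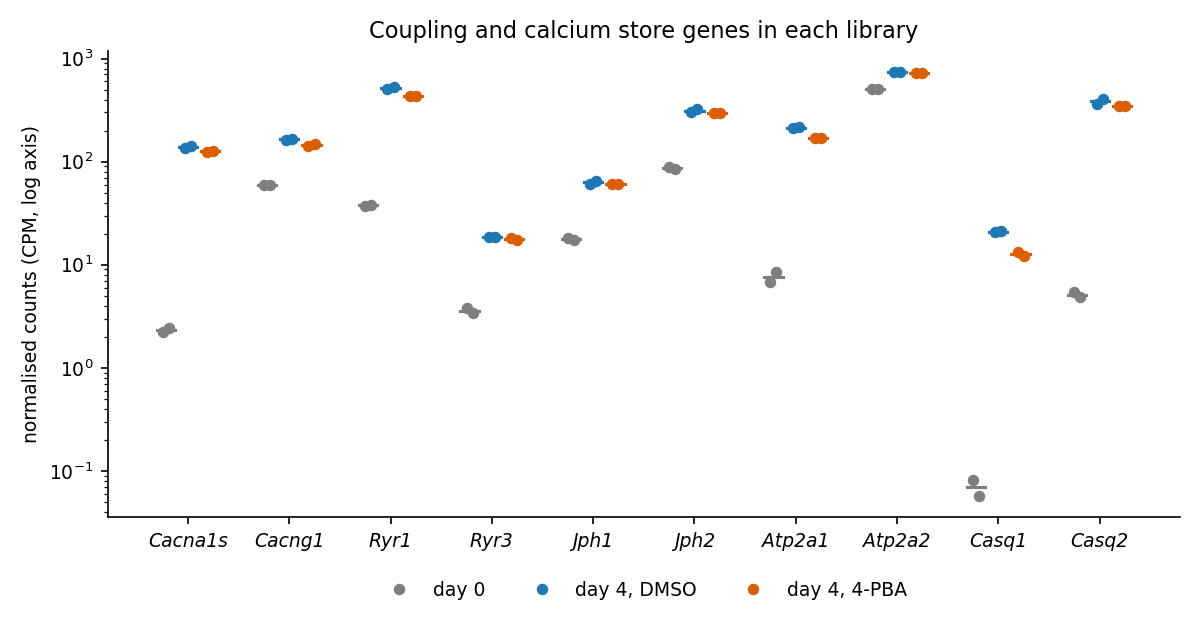
Normalised counts (CPM, log axis) of the 10 genes, with 1 point per library and a short line at the mean of each group. For every gene both day 0 libraries lie below the 4 day 4 libraries, and Casq1 spans the widest range, from 0.057 to 21.3 CPM. Of all tested genes, 33.8% with DMSO and 33.2% with 4-PBA were called higher than at day 0. The share of all tested genes whose libraries lie apart in this way is not given here.

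Of the 10 genes the calsequestrins Casq1 and Casq2 had the largest rises with DMSO, and Casq1 had the largest fall with 4-PBA. Casq1 is the isoform of fast skeletal fibres and Casq2 that of heart and slow fibres. Promoters are shown for this pair and for Atp2a1, the pump that differed most with 4-PBA, as the 250 bases before the RefSeq start on GRCm38.p6, written 5′ to 3′ along the gene. They lie at chr1:172219896-172220145 (minus strand) for Casq1, chr3:102086165-102086414 (plus strand) for Casq2 and chr7:126463074-126463323 (minus strand) for Atp2a1. Capitals mark matches on either strand to CANNTG, the E-box read by MyoD-family factors, and to the MEF2 motif.
Casq1: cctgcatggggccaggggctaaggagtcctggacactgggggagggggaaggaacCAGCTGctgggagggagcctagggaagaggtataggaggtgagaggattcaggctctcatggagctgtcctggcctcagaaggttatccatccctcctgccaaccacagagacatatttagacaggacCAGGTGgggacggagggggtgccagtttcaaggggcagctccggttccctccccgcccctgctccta
Casq2: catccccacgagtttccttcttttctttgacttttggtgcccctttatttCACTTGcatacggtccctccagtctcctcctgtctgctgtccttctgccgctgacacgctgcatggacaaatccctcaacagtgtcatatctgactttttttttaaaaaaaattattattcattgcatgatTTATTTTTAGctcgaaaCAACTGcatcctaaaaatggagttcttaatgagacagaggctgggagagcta
Atp2a1: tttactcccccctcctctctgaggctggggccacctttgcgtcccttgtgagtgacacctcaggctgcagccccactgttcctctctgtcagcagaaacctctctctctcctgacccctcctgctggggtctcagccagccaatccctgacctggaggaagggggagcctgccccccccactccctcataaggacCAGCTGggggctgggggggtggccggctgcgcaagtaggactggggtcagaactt
CANNTG began 195 and 67 bases before the start in Casq1, 200 and 52 in Casq2, and 55 in Atp2a1. The first of these in Casq1 and that in Atp2a1 have the letters CAGCTG, a form of CANNTG, and the MEF2 match in Casq2 began 69 bases before the start. Of the 6 genes with an entry in the promoter table, 5 held CANNTG, 4 held CAGCTG and 1 held the MEF2 motif. Among all 32851 starts in the table these letters occurred in 66.2%, 13.0% and 2.92% of windows of the same length. A match describes letters and was not tested as a binding site.

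Casq1 stood at 0.0823 and 0.057 CPM at day 0 (4 counts in each library), 20.6 and 21.3 CPM under DMSO and 13.3 and 12.3 CPM under 4-PBA. The 3 groups did not overlap. The log2 fold change was 8.24 (SE 0.193) with DMSO against day 0, adjusted p 1.01e-28, with a size that rests on those few day 0 counts. Against DMSO, Casq1 fell by 0.71 with 4-PBA on the log2 scale (SE 0.0841, adjusted p 8.53e-07), a change of -39.0%. This was the 7th largest fall among the 455 genes called lower at 5 CPM or more. Casq2 stood at 5.43 and 4.83 CPM at day 0, 362 and 404 CPM under DMSO and 343 and 348 CPM under 4-PBA. The DMSO replicates lay further apart than the 4-PBA replicates. Its rise with DMSO was 6.24 on the log2 scale (SE 0.0633, adjusted p 2.04e-21). Between 4-PBA and DMSO its log2 fold change was -0.15 (SE 0.0429, adjusted p 0.0587, 95% interval -0.241 to -0.0583), which missed the threshold although both 4-PBA libraries lay below both DMSO libraries. Leaving out DMSO replicate 2 gave -0.067, and leaving out DMSO replicate 1 gave -0.23, each with a single DMSO library left. Casq2 was called by DESeq2 (adjusted p 0.0327) and limma-voom (0.0185), and was not called in 8 of the 15 alternatives.

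Atp2a1 codes for SERCA1, the pump of fast fibres, and Atp2a2 for SERCA2, which has a heart and slow muscle form and a form found in most cells. The counts do not separate those forms. Atp2a1 stood at 6.77 and 8.50 CPM at day 0, 210 and 216 CPM under DMSO and 169.1 and 168.9 CPM under 4-PBA, with no overlap between groups. It rose by 4.78 on the log2 scale with DMSO (SE 0.0591, adjusted p 2.41e-24). It fell by 0.34 with 4-PBA against DMSO (SE 0.0435, adjusted p 6.48e-05), a change of -20.8%. Atp2a2 was already at 507 and 503 CPM at day 0, and stood at 741 and 740.1 CPM under DMSO and 732 and 730.4 CPM under 4-PBA. All 4 day 4 libraries lay above both at day 0. Its rise with DMSO was 0.55 (SE 0.0277, adjusted p 5.08e-19). The 4-PBA libraries differed from DMSO by a log2 fold change of -0.018 (adjusted p 0.826), with a 95% interval from -0.0742 to 0.0376. Atp2a2 held 69.5% and 69.7% of the counts of the 10 genes at day 0, and 28.2% to 29.4% with DMSO.

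Ryr1, the release channel that skeletal coupling needs, stood at 37.1 and 38.1 CPM at day 0, 508 and 530 CPM under DMSO and 437 and 436 CPM under 4-PBA. The groups did not overlap, and the 4-PBA replicates were closer to each other than the DMSO replicates. Ryr1 rose by 3.79 on the log2 scale with DMSO (SE 0.0354, adjusted p 1.33e-40) and fell by 0.25 with 4-PBA against DMSO (SE 0.0302, adjusted p 1.31e-06), a change of -15.8%. Ryr3 codes for a release channel found in many tissues and in young muscle. It stood at 3.77 and 3.40 CPM at day 0, 18.4 and 18.6 CPM under DMSO and 18.1 and 17.3 CPM under 4-PBA. It rose by 2.38 with DMSO (SE 0.0957, adjusted p 8.95e-22). The 4-PBA libraries differed from DMSO by a log2 fold change of -0.069 (adjusted p 0.75), with a 95% interval from -0.229 to 0.0906. Ryr2, the heart form, had 12 to 31 counts per library and was not called in either comparison.

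Cacna1s codes for the voltage-sensing pore subunit of the tubule channel and Cacng1 for its gamma subunit. Cacna1s stood at 2.22 and 2.42 CPM at day 0, 137 and 143 CPM under DMSO and 124 and 127 CPM under 4-PBA. It rose by 5.90 on the log2 scale with DMSO (SE 0.0613, adjusted p 3.22e-39) and fell by 0.16 with 4-PBA against DMSO (SE 0.0383, adjusted p 0.0107). Neither pair of groups overlapped. The second call was lost when any of DMSO replicate 2 (adjusted p 0.0941), 4-PBA replicate 1 (0.201) or 4-PBA replicate 2 (0.0824) was left out, with log2 fold changes from -0.19 to -0.12 over all left-out libraries. Cacng1 was well expressed before differentiation, at 59.3 and 59.0 CPM at day 0, and stood at 162 and 167 CPM under DMSO and 143 and 147 CPM under 4-PBA. It rose by 1.47 with DMSO (SE 0.0366, adjusted p 5.21e-28) and fell by 0.18 with 4-PBA (SE 0.0347, adjusted p 0.00105). This call was lost without 4-PBA replicate 1 (adjusted p 0.076).

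The junctophilins rose from day 0 to day 4 with DMSO by nearly equal amounts. Jph1 stood at 18.3 and 17.4 CPM at day 0, 61.2 and 65.5 CPM under DMSO and 60.9 and 61.3 CPM under 4-PBA, where the day 4 groups overlapped. Jph2 stood at 89.5 and 85.1 CPM at day 0, 302 and 321 CPM under DMSO and 294 and 296 CPM under 4-PBA. The log2 fold change with DMSO was 1.83 (SE 0.0539) for Jph1 and 1.84 (SE 0.0352) for Jph2, with adjusted p 8.27e-26 and 3.73e-31. Neither was called between 4-PBA and DMSO: the log2 fold change was -0.052 for Jph1 (adjusted p 0.664, 95% interval -0.151 to 0.0456) and -0.079 for Jph2 (adjusted p 0.201, 95% interval -0.146 to -0.0111). Jph2 was called without DMSO replicate 1 (-0.12, adjusted p 0.00976).

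**Figure D2:**
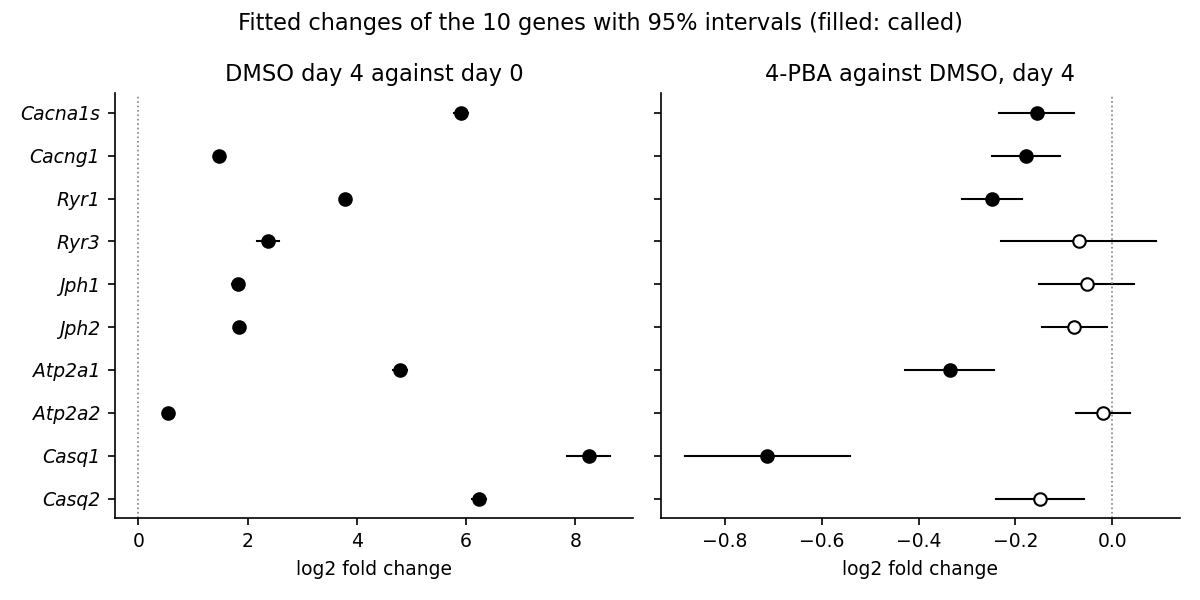
Fitted log2 fold changes of the 10 genes with 95% intervals, for DMSO at day 4 against day 0 (left) and 4-PBA against DMSO (right, with a different scale). Filled points were called at an adjusted p under 0.05: all 10 on the left, and Cacna1s, Cacng1, Ryr1, Atp2a1 and Casq1 on the right, where Casq1 lies furthest from 0 at -0.71.

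Divided by transcript length (the principal coding transcript of GENCODE M21), levels can be ordered between genes. The order rests on 1 transcript per gene, also for Atp2a2, whose forms the counts do not separate, and other transcripts were not tried. At day 0 Atp2a2 was highest at 113 CPM per kb, followed by Cacng1 at 47.4 and Jph2 at 20.7. Ryr1 (2.45), Atp2a1 (2.20) and Casq2 (2.01 CPM per kb) formed a run in which neighbours overlapped between libraries, and Casq1 was lowest at 0.0377. With DMSO the order was Atp2a2 (165), Casq2 (150), Cacng1 (132), Jph2 (73.9), Atp2a1 (61.3), Ryr1 (33.8), Cacna1s (22.4), Jph1 (13.2), Casq1 (11.3) and Ryr3 (1.20 CPM per kb), and no neighbours overlapped. Casq2 had thus moved from the 7th place to the 2nd. With 4-PBA the 10 genes stood in the same order as with DMSO.

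The share of each paralog pair can be read within a library, where it does not depend on library scaling. Ryr1 held 90.8% and 91.8% of Ryr1 and Ryr3 counts at day 0, then 96.5% and 96.6% under DMSO and 96.0% and 96.2% under 4-PBA. Atp2a1 held 1.32% and 1.66% of the Atp2a1 and Atp2a2 counts at day 0, 22.1% and 22.6% under DMSO and 18.8% in each library under 4-PBA. Casq1 held 1.49% and 1.17% of the calsequestrin counts at day 0, on 268 and 343 counts in all, then 5.38% and 5.00% with DMSO and 3.73% and 3.40% with 4-PBA. For these pairs the 4-PBA and DMSO libraries did not overlap. For the Casq1 and Atp2a1 shares their exact 95% binomial intervals, which cover counting error only, did not overlap either. Jph1 held 16.8% to 17.2% of the junctophilin counts in all 6 libraries, and the intervals of all 6 overlapped, although both 4-PBA values lay above both DMSO values. With 2 libraries against 2 an exact permutation test cannot give a p below 0.333, so these shares are given without a test.

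**Figure D3:**
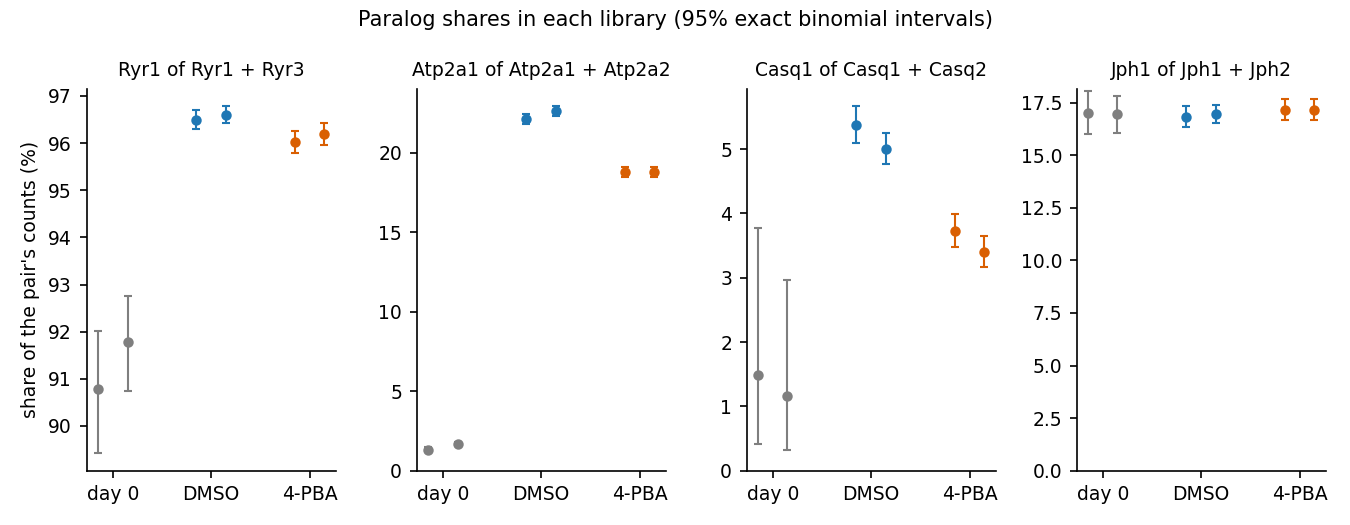
Share of the counts of each paralog pair held by the first-named gene (percent), with 1 point per library and exact 95% binomial intervals. The axis of the Ryr1 panel does not start at 0. The Casq1 share is 5.38% and 5.00% with DMSO and 3.73% and 3.40% with 4-PBA, while that of Jph1 stays between 16.8% and 17.2%.

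Leaving out single libraries moved the 4-PBA values of several genes but changed the sign of none, with Jph1 closest to 0 at -0.00046 without DMSO replicate 2. Casq1 lay between -0.77 and -0.66, Atp2a1 between -0.36 and -0.31, and Ryr1 between -0.28 and -0.22 on the log2 scale, and these 3 calls were kept in each of the 15 alternatives run. The number of the 10 genes called lower was 3 without 4-PBA replicate 1 and 7 without DMSO replicate 1. In the DMSO group replicate 2 was the higher of both replicates for the summed level of the 10 genes, 2627 against 2522 CPM, and for the summed myotube markers.

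**Figure D4:**
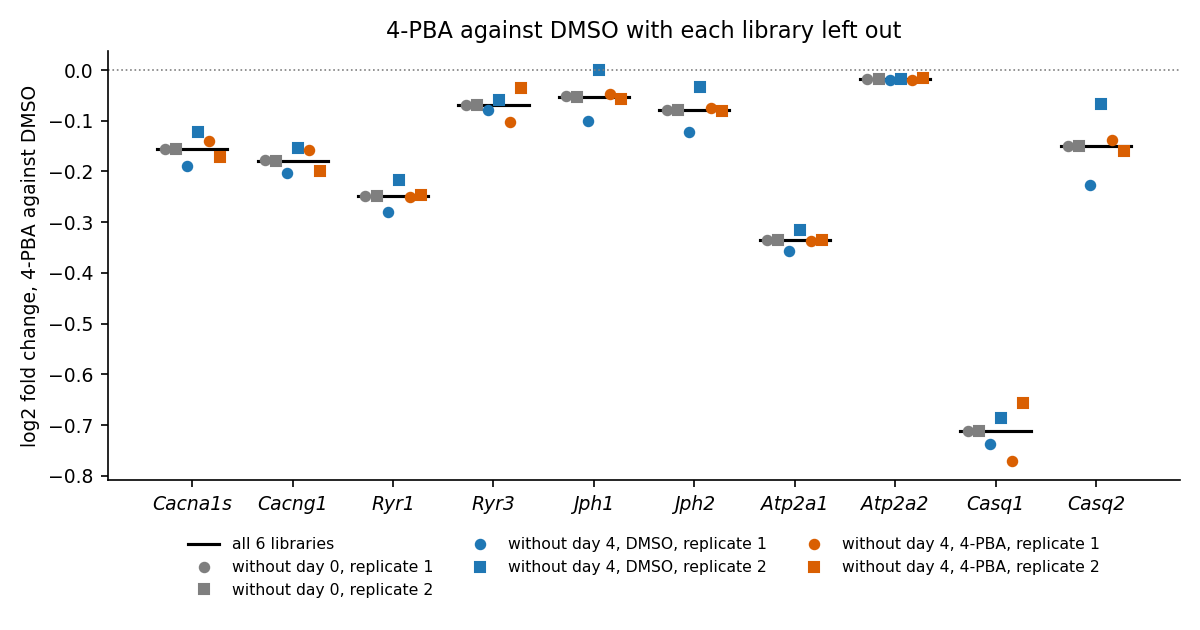
Log2 fold change between 4-PBA and DMSO for each of the 10 genes with all 6 libraries (black line) and with each library left out (points). Values without a day 0 library lie at the line, those without DMSO replicate 1 lie below it and those without DMSO replicate 2 above it for every gene but Atp2a2, where all lie close to it, and Casq1, Atp2a1 and Ryr1 stay between -0.77 and -0.22.

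The myotube markers moved in the same direction as the 10 genes in part. Of those 10 markers 5 were lower with 4-PBA than with DMSO: Mymx (-0.35, adjusted p 5.66e-05), Actc1 (-0.22), Mymk (-0.17), Des (-0.11) and Acta1 (-0.094 on the log2 scale), and none was higher. Of all tested genes, 2.78% were called lower and 2.13% higher. At an unadjusted p under 0.05 edgeR had 6 lower and 1 higher, DESeq2 called 5 lower and 0 higher, and limma-voom 6 lower and 1 higher. Of the 17433 tested genes, these settings in turn gave 1488, 384 and 481 lower and 1420, 298 and 346 higher. Without 4-PBA replicate 1 neither Mymk (adjusted p 0.142), Des (0.242) nor Acta1 (0.461) was called, and without 4-PBA replicate 2 the same 3 were not (0.094, 0.172 and 0.229). Mymk (0.0909) and Acta1 (0.136) were also lost without DMSO replicate 2, and Acta1 without either day 0 library (0.0924 and 0.0872). Myog (0.0052), Myh3 (0.018), Myh8 (0.21), Tnnt3 (-0.12) and Ckm (-0.17) were not called. Of the 4 cell cycle genes Pcna was higher with 4-PBA (0.18, adjusted p 0.00117), and Mki67 (0.19), Top2a (0.25) and Ccnb1 (0.24) were not called. All 4 were higher at an unadjusted p under 0.05, as were 1420 of the 17433 tested genes. Limma-voom called all 4 higher and DESeq2 called 1, against 346 and 298 of the tested genes. The 4 cell cycle genes summed to 452.6 and 392 CPM with DMSO against 485.2 and 493.6 CPM with 4-PBA. The part of these differences in the lower coupling genes was not tested, and in bulk RNA fewer differentiated cells and less RNA per cell cannot be told apart. The heart muscle markers Myh6, Tnni3 and Nppa summed to 11.79 and 12.01 CPM under DMSO and 8.36 and 9.53 CPM under 4-PBA, and Myh6 was lower (-0.48, adjusted p 0.00815), a call lost without 4-PBA replicate 1 (adjusted p 0.197).

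A list of 58 other genes of calcium handling had 49 tested genes. With DMSO against day 0, 31 were higher and 11 lower, where 33.8% and 32.6% of all tested genes were, with a median log2 fold change of 0.92, also when the 5 genes whose day 0 libraries had no more than 3 counts were set at their bound. The largest rises among those at 5 CPM or more were in Dhrs7c, a reductase of the sarcoplasmic reticulum (0 and 1 counts at day 0, at least 116-fold higher), the muscle sodium channel Scn4a (7.52), Trim72 (6.14), a membrane repair protein, Hrc (6.01), a calcium-binding protein of the store, and Srl (4.73 on the log2 scale), a glycoprotein of the reticulum. The size for Scn4a rests on 4 and 13 counts at day 0. The largest falls among those called at 5 CPM or more were in Stac2 (-0.67), Fkbp1a (-0.61), which codes for a ryanodine receptor-binding protein, and Orai3 (-0.36), a channel of store-operated calcium entry. Below 5 CPM, Clcn1, listed with Scn4a under membrane excitability, fell further (-1.32, SE 0.333, adjusted p 7.41e-04), from 70 and 80 counts to 36 and 34. By role, 7 of 9 genes of the store lumen and membrane and 4 of 5 voltage sensor partners were higher, while 5 of 9 release channels and regulators were lower. Of the paralogs of the 10 genes in the list, Atp2a3 rose (3.13), from 0.370 and 0.199 CPM to 2.49 and 2.32 CPM under DMSO. Cacng6, another gamma subunit gene, rose by 3.85 (SE 0.504, adjusted p 4.19e-08), from 0 and 9 counts to 74 and 76. Cacna1g rose by 3.96 (SE 0.345, adjusted p 2.07e-12), from 6 and 7 counts to 112 and 125, and Cacna1c, Cacna1d and Cacna1h, each with at most 20 counts in any library, were not called. Jph4 had at most 14 counts in any library and Jph3 at most 4. Of the pump inhibitor genes, Mrln rose by 1.97 (SE 0.169, adjusted p 1.34e-12), from 1.46 and 1.23 CPM to 5.42 and 5.02 CPM under DMSO, while Sln had 0 counts and Pln at most 2 counts in each library.

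Between 4-PBA and DMSO, 5 of these 49 genes were lower and 1 was higher, 6 in all against 4.90% of all tested genes, with a median log2 fold change of -0.028. Of the voltage sensor partners 3 of 5 were lower: Cacnb1, the beta subunit that binds Cacna1s (-0.19, SE 0.0356, adjusted p 8.49e-04), Stac3, an adaptor that coupling requires (-0.18, SE 0.0551, adjusted p 0.0476), and Stac2 (-0.15, SE 0.0341, adjusted p 0.00554). Cacnb1 stood at 167 and 171 CPM under DMSO and 146 and 151 CPM under 4-PBA. Scn4a (-0.31, SE 0.0732) and Trim72 (-0.17, SE 0.0413) were also lower, and Cacna1g, a T-type calcium channel, was higher (0.72, SE 0.211, adjusted p 0.0394) at 1.78 and 1.69 CPM under DMSO and 2.82 and 2.87 CPM under 4-PBA. Without 4-PBA replicate 1 all 6 of these calls were lost, and without 4-PBA replicate 2 that of Cacnb1 alone was kept. Stac3 was lost whichever library was left out, and Cacna1g without any one of the 4 day 4 libraries. No gene of the store lumen and membrane was called by edgeR, where 1 was higher and 1 lower at an unadjusted p under 0.05, while DESeq2 and limma-voom each called 1 higher. Of the 17433 tested genes, 1420 were higher and 1488 lower at that unadjusted p. DESeq2 called 298 and limma-voom 346 of them higher. The log2 fold changes of these 9 store genes ran from -0.15 for Trdn to 0.091 for Calr, a calcium-binding chaperone that was closest to a call (adjusted p 0.0563), and 7 of the 9 were negative.

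**Figure D5:**
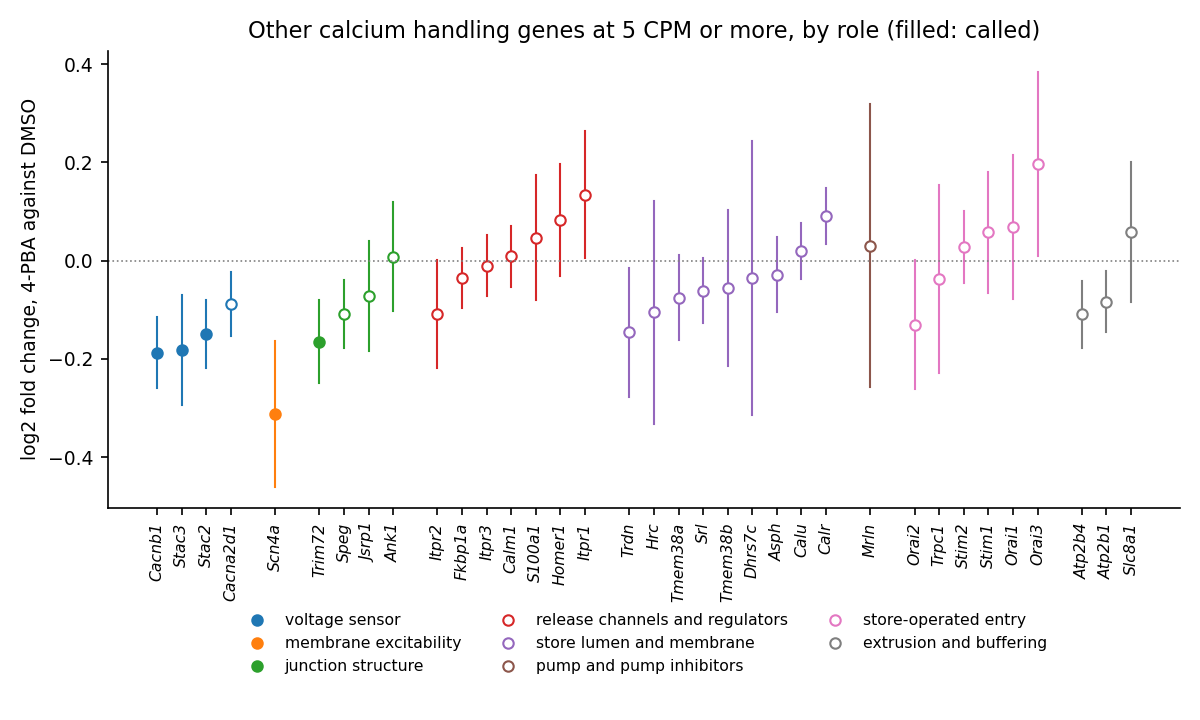
Log2 fold change between 4-PBA and DMSO, with 95% intervals, for 35 other calcium handling genes with at least 5 CPM in a day 4 group, coloured by role. Filled points were called: Cacnb1, Stac3, Stac2, Scn4a and Trim72, all below 0. Cacna1g, which was called higher (0.72), lay under 5 CPM and is not drawn.

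For each of the 5 genes called between 4-PBA and DMSO, the genes with the most similar pattern over the 6 libraries were found among 10680 genes at 5 CPM or more, by the root mean square difference of centred log2 CPM. Casq1 was nearest to Myh7 (0.16), Pgm5 (0.162) and Ctrb1 (0.174). At day 0 Casq1 (0.0823 and 0.057 CPM) lay below the 0.5 CPM added before the log. Its likeness to these genes thus rests in part on that setting. Myh7, for example, stood at a mean of 0.685 CPM at day 0. Atp2a1 lay close to Srpk3 (0.0789) and Lmod3 (0.0888), and Ryr1 was nearest to Synpo2l (0.0375), Ttn (0.0674) and Myl6b (0.0676). Cacna1s was nearest to Tnni2 (0.0576), Lmod2 (0.0685) and C1qtnf3 (0.073), and Cacng1 to Akap6 (0.0286), 1110002E22Rik (0.0364) and Nav2 (0.0369). Lmod2, Lmod3, Ttn, Tnni2, Myl6b and Myh7 code for sarcomere proteins. How common such genes are among the 10680 was not counted.

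In GENCODE M21, 7 of the 10 genes share exonic sequence with a gene of the other strand, and reads of such partners cannot be told apart if counting did not use strand, which the sources used here do not state. They are Cacna1s, Ryr1, Ryr3 (with Aven), Jph1, Atp2a1 (with Rabep2), Atp2a2 and Casq1. Cacng1, Jph2 and Casq2 have no such overlap.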

How the data were processed

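The authors deposited 1 table of raw counts, whole numbers for each gene symbol in each library, without scaling or pooling of replicates; the genome build was GRCm39 per the submitters' processing notes, and the aligner, counting tool, annotation and strand setting are not given in the sources used here. Per the labels' protocols, directional libraries were made from DNase-treated total RNA. All 6 libraries carry batch number 1 and no column went unused. Counts were filtered with filterByExpr, scaled with TMM and fitted in 1 model over all 6 libraries with edgeR 4.0.16 (R 4.3.3), 1 mean per group, with robust glmQLFit and 3 residual degrees of freedom. The spread of each gene was moderated toward that of other genes, with a median of 30.4 prior degrees of freedom. Genes with a Benjamini-Hochberg adjusted p under 0.05 over 17433 tested genes were called. SE is the log2 fold change divided by the square root of F. A fold change against at most 3 counts in each library is a lower bound from 3 counts per library.

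Replicates differed by more than sampling noise (chi-square per degree of freedom 3.98 at day 0, 7.15 with DMSO, 5.71 with 4-PBA), so for well-covered genes that spread and not depth limits precision. Tested on simulated counts of 16976 genes for 4-PBA against DMSO, 38 of 50 genes changed 1.25-fold and 43 of 50 changed 1.5-fold were called. So were 50 of 50 changed 2-fold, 49 of 50 changed 4-fold and 13 of 16776 unchanged genes. Smaller changes, such as those of Ryr1 (1.19-fold lower), Cacng1 (1.13-fold) and Cacna1s (1.11-fold), were not simulated. Alternatives used DESeq2 1.42.0, limma 3.58.1, other scalings and filters, a stricter threshold, a replicate block, only the 4 libraries compared, and each library left out. Leaving out a library leaves a single library in its group, so the spread is then estimated from the other groups. The 10 genes, the lists and the tests were chosen with earlier results of these data known. Other genes were named by rule: of the calcium handling list, up to 8 called between 4-PBA and DMSO, the 5 largest rises and 3 largest falls called with DMSO at 5 CPM or more and paralogs of the 10 genes; the myotube and cell cycle markers; and, for each of the 10 called, 3 genes of like pattern (pseudocount 0.5 CPM). Sln, Pln, Mrln, Trdn, Calr, Cacng6, Cacna1c, Cacna1d, Cacna1h and Clcn1 were named after their values were seen. A gene of the calcium handling list, left out of its counts, and a gene of like pattern are not reported here. Figures used matplotlib 3.10.9.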

Additional observations from a re-analysis of the deposited data

How the results depend on the processing

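All 10 genes were higher at day 4 than at day 0 in each of the 15 alternatives, with DMSO and with 4-PBA. Between 4-PBA and DMSO the 10 genes kept a negative sign in each alternative, and the number called lay between 3 and 7 with 1 library left out and between 4 and 6 otherwise. Casq2 was called in 7 of the 15 alternatives. For the 49 other calcium handling genes the number called was between 0 and 10 with 1 library left out and 3 at an adjusted p under 0.01, against 6. Over all tested genes 855 were called, against 341 without 4-PBA replicate 1, 295 without 4-PBA replicate 2 and 424 at an adjusted p under 0.01. Replicate differences correlated weakly between groups (correlations of deviations 0.0478, -0.106 and -0.0712), which cannot decide whether replicate numbers pair the samples. With a replicate block 6 of the 10 genes and 4 of the 49 others were called, and 768 of all genes. Per transcript length the Atp2a1 share of its pair was 1.91% at day 0, 27.1% with DMSO and 23.0% with 4-PBA, that of Casq1 1.83%, 7.04% and 4.87%, and that of Jph1 15.2%, 15.1% and 15.4%. Depth limits Casq1 at day 0, with 4 counts per library.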
